A study of Mus musculus with 8 samples.

Results

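The Hox genes of the mouse clusters a, b, c and d are the 37 rows, of 21182 in the deposited expression table, whose symbol is Hox followed by a cluster letter and a paralog number. Their levels were measured by RNA sequencing of whole embryos, each lysed on its own, at E6.75 (embryonic day), the onset of gastrulation. The embryos were of the C57BL/6 background: 4 had the genotype label Control and 4 the label Tet1/2/3 TKO, for loss of the methylcytosine dioxygenases Tet1, Tet2 and Tet3. The sample descriptions of the Control embryos carry the letters WT, with no allele named. The alleles, the way they were deleted, litters and sexes are not named in the labels. The design makes 1 comparison, TKO-labelled against Control embryos.

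Hox genes encode homeodomain transcription factors that give cells their position along the head-to-tail axis. Within a cluster they are switched on in the order in which they lie, beginning with the genes of low paralog number at the 3′ end during gastrulation and ending with the genes of paralog groups 10 to 13 at the 5′ end. Before that the clusters are silent and covered by Polycomb proteins, and TET enzymes, which oxidise methylated cytosine in CG dinucleotides, are bound at many promoters of this kind. In adult females Hoxa10 and Hoxa11 are known for their part in the uterus and in the decidua, the maternal tissue around the implanted embryo.

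The sequences upstream of Hoxd13, Hoxd10, Hoxa11 and Hoxb1, members picked by their results, are shown first. TET enzymes act on CG dinucleotides, given in capitals. They are the 250 bases before the annotated start, 5′ to 3′ on the strand of the gene, from RefSeq on GRCm38.p6, which is not the build of the deposited values.
Hoxd13, chr2:74667975-74668224, plus strand: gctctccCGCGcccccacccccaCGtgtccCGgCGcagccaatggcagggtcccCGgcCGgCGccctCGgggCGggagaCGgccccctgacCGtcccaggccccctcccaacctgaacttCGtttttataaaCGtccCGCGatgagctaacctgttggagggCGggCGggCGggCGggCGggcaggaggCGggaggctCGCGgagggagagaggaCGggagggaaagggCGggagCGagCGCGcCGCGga
Hoxd10, chr2:74691641-74691890, plus strand: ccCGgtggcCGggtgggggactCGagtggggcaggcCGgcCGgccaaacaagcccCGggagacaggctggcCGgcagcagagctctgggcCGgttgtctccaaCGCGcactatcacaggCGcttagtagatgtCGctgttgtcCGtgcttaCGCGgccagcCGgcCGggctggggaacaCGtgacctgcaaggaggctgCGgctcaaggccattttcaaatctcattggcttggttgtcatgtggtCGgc
Hoxa11, chr6:52245811-52246060, minus strand: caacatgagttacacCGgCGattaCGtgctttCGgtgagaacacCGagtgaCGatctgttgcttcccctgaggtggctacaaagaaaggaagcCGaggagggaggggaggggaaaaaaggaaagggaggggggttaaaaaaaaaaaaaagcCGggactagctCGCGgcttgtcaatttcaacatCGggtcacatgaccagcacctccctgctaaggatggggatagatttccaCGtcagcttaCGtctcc
Hoxb1, chr11:96365508-96365757, plus strand: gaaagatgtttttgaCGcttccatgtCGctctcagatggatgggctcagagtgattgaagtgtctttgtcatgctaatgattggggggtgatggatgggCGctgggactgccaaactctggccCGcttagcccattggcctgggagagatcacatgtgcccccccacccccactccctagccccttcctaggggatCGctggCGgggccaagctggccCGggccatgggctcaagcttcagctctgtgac
The window before Hoxd13 holds 31 CG, a count reached by 5.19% of the 32851 windows of this length in the same table. Those before Hoxd10, Hoxa11 and Hoxb1 hold 20, 13 and 7 CG, counts reached by 17.9%, 31.5% and 46.3% of all windows. The highest count of a Hox window is that of Hoxa13, whose groups overlapped, with 35 CG, reached by 2.97% of all windows. Windows before Hoxa5, Hoxa6 and Hoxd1 hold 28, 24 and 24 CG, and those before Hoxa10 hold 20 and 7. For 22 of the 37 Hox genes the table holds a window, 24 in all, with a median of 12.5 CG against 6 over all windows. Methylation was not measured, so these counts describe sequence only.

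Expression is given in RPKM, a read count scaled to gene length and to library size, so that levels compare between genes per length. The estimated depth was 12.38 to 16.42 M reads (M for mega) in Control and 9.90 to 18.96 M reads in TKO-labelled embryos. Tet1, the target checked first, stood at 5.04, 5.25, 4.93 and 5.76 RPKM in Control replicates 1 to 4 and at 15.3, 9.50, 9.21 and 11.7 RPKM in the embryos with the TKO label. Tet2 averaged 0.725 ± 0.189 and 0.784 ± 0.172 RPKM and Tet3 1.85 ± 0.16 and 1.38 ± 0.25 RPKM (SD, n = 4). Tet3 was lower in every TKO-labelled embryo (1.14 to 1.68 RPKM) than in every Control embryo (1.73 to 2.08 RPKM, limma adjusted p = 0.297). Lower values without overlap were found in 2.01% of the 17635 genes above 0 in at least 4 embryos. Tet1 transcript was thus not lost under the TKO label, and 1 value per gene cannot show missing exons. The embryos are therefore called TKO-labelled, and each direction below rests on that label.

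Most Hox genes were silent or nearly so. In 32 of the 37 genes no embryo reached 1 RPKM, and in 27 none reached 0.3 RPKM. Of the 296 values, 111 (37.5%) were listed at 0 and a further 123 (41.6%) came from an estimated 1 to 3 reads. Only 23 values (7.77%) rested on more than 20 reads. Those that reached 1 RPKM in some embryo include Hoxa10, Hoxa11, Hoxd10 and Hoxd13, the 4 described below. Cluster c was the lowest, with 51.8% of its 56 values at 0 and no gene at 1 RPKM, and cluster b likewise had no gene at that level. By the genes that reached 1 RPKM, levels did not fall from the centre of the clusters to the 5′ end. Of the 15 genes of paralog groups 5 to 9, 0 reached 1 RPKM in some embryo, and of the 10 genes of groups 10 to 13, 4 did. This was not so in every embryo. Hoxa10, Hoxa11 and Hoxd10 varied with decidual markers, as given below, and Hoxd13 reached 1 RPKM only under the TKO label. In Control replicate 2 these 4 genes were at 0.112 RPKM or less.

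**Figure D1:**
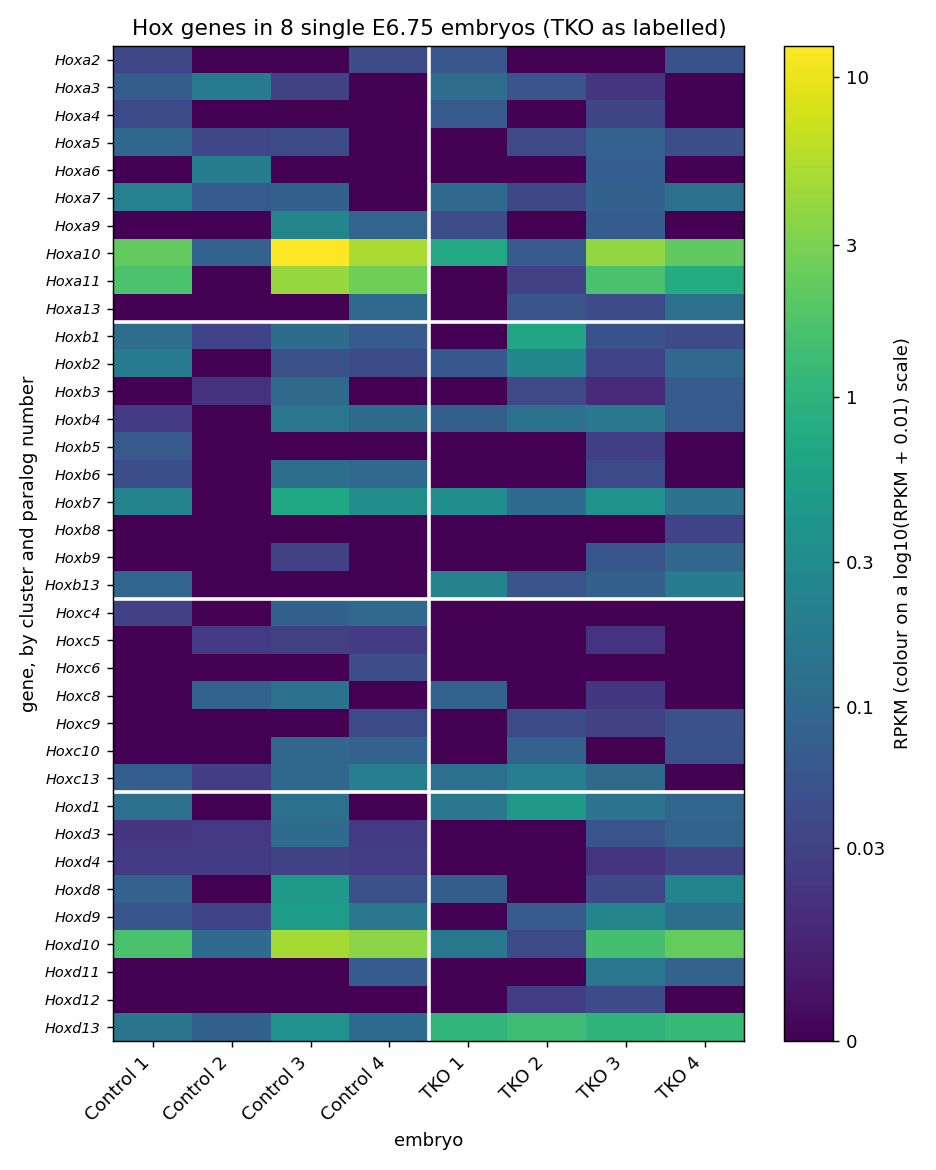
RPKM of Hox genes (rows, by cluster and paralog number, clusters a to d from the top) in the 4 Control and 4 TKO-labelled embryos (columns), with colour on a log10(RPKM + 0.01) scale. Hoxa10, Hoxa11 and Hoxd10 are bright in some embryos of each group, and Hoxd13 is bright in the TKO-labelled embryos.

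The number of Hox genes at or above 0.1 RPKM was 10, 4, 16 and 12 in Control replicates 1 to 4 and 10, 8, 11 and 12 in TKO-labelled replicates 1 to 4. The means were 10.5 ± 5.0 and 10.2 ± 1.71 genes (SD, n = 4), and the groups overlapped. The summed level of all 37 genes ran from 1.67 to 26.1 RPKM in Control and from 4.34 to 11.1 RPKM in TKO-labelled embryos. Hoxa10, Hoxa11 and Hoxd10 together made up 11.8% to 82.0% of that sum in Control and 2.79% to 62.0% in TKO-labelled embryos. The sum thus followed 3 posterior genes. Without them it was 3.41, 1.48, 4.69 and 2.73 RPKM in Control and 3.43, 4.78, 4.23 and 3.91 RPKM in TKO-labelled embryos.

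Hoxd13, the most 5′ gene of cluster d, known for its part in digits and the genital tubercle, was the Hox gene whose groups stood apart. It was at 0.146, 0.081, 0.355 and 0.112 RPKM in Control replicates 1 to 4, or an estimated 6, 3, 11 and 4 reads. In TKO-labelled replicates 1 to 4 it was at 1.06, 1.36, 1.01 and 1.17 RPKM, or an estimated 26, 48, 48 and 34 reads. Every TKO-labelled embryo lay above every Control embryo. The means were 0.173 ± 0.124 and 1.15 ± 0.16 RPKM (SD, n = 4), a ratio of 6.62, and in absolute terms Hoxd13 remained a weakly expressed gene. On the log2(RPKM + 1) scale, which understates changes of low genes, the difference was 0.88 (SE 0.13, 95% confidence interval 0.59 to 1.16). The SE and interval are from the limma fit described next, which Hoxd13 entered only through its TKO-labelled values. They therefore carry no weight as support.

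In the fit across 10451 genes with at least 1 RPKM in at least 4 embryos, Hoxd13 had the fifth smallest limma p, 3.89e-05, and an adjusted p of 0.0813, so it missed the threshold of 0.05. It entered that fit only because its 4 TKO-labelled values passed 1 RPKM, a selection on the higher group. Its rank and p-values there, among all genes as among the Hox genes, therefore carry no weight as support. With genes at 0.1 RPKM or more in at least 4 embryos, a level reached by Hoxd13 in 7 embryos, 14354 genes were tested. Under that filter the limma adjusted p of Hoxd13 was 0.0396, and 4 genes (0.0279%) passed in all, against 1 gene with higher (0.00957%) and 0 (0%) with lower values under the stricter filter. At that level the call was kept with median-ratio scaling (limma adjusted p = 0.0478) and without TKO-labelled replicate 1 (0.030). It was lost on leaving out any of the other embryos, with limma adjusted p-values of 0.0570 to 0.233, while the log2 difference stayed between 0.83 and 0.95. It was also lost with the replicate number as a block (limma adjusted p = 0.0881) and with the decidua (0.0759) or parietal endoderm (0.214) list as a covariate. At an unadjusted limma p under 0.05 stood 13.9% of the 10451 genes with higher and 3.6% with lower values. That split was 1448 to 376 genes as deposited and 839 to 673 after median-ratio scaling.

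A total of 28 Hox genes were above 0 in at least 4 embryos, and their values were set against all exact permutations of the group labels, two-sided, which cannot give a p below 0.0286. Among them the 4 and 4 values did not overlap for Hoxd13 alone. Over all 17635 genes compared in this way the values did not overlap in 5.25% with higher and in 2.01% with lower TKO-labelled values, together 7.26%, and the share with higher values was 7.55% in the 10451 genes of the limma fit. A single such Hox gene of 28 is therefore no more than the share found over all genes. The exact permutation p of Hoxd13 was 0.0286, and 0.394 when adjusted over all these genes, which is the smallest adjusted value any gene had. The other 27 genes had exact permutation p-values of 0.0857 or more, before adjustment.

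The other members of paralog group 13 did not separate in the same way. Hoxb13, known from prostate and tail bud, was listed at 0 in 3 Control embryos and at 0.092 RPKM in the other, and was at 0.230, 0.054, 0.080 and 0.194 RPKM in TKO-labelled embryos. These values rest on at most 3 estimated reads each, and the exact permutation p was 0.0857. Hoxa13, of limb and urogenital tract, reached at most 0.130 RPKM in any embryo, in TKO-labelled replicate 4. Hoxc13, known from hair and nail, averaged 0.10 ± 0.073 and 0.109 ± 0.084 RPKM (SD, n = 4), and the groups overlapped.

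The neighbours of Hoxd13 in its cluster stayed near 0 in both groups. Hoxd12, the next gene, reached 0.042 RPKM at most and was above 0 in 2 TKO-labelled embryos, with an estimated 1 and 2 reads. Hoxd11 reached 0.155 RPKM at most, with 3 reads, and was above 0 in 3 embryos. Evx2, the homeobox gene on the other side of Hoxd13, was listed at 0 in 5 embryos and reached 0.168 RPKM in Control replicate 3. The level of Hoxd13 in TKO-labelled embryos was thus not shared by the genes beside it.

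**Figure D2:**
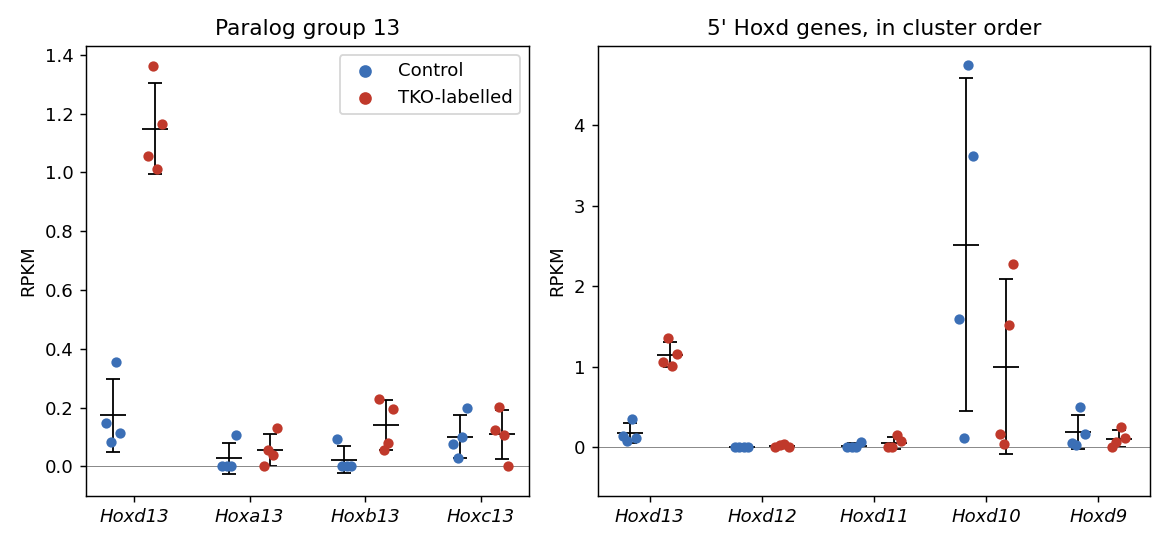
RPKM of the group 13 paralogs (left) and of the 5′ genes of cluster d in cluster order (right) in Control (blue) and TKO-labelled (red) embryos. Points are embryos, horizontal bars the mean and error bars the SD (n = 4). Hoxd13 lies at 1.01 to 1.36 RPKM in the 4 TKO-labelled embryos and at 0.081 to 0.355 RPKM in Control, while Hoxd12 and Hoxd11 stay near 0 and Hoxd10 spreads widely in both groups.

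Parietal endoderm genes also differed between the groups in these whole embryos, so their levels are given beside Hoxd13. The mean log2(RPKM + 1) of 9 such genes was 3.35, 2.77, 2.90 and 3.88 in Control and 3.35, 5.12, 5.55 and 4.77 in TKO-labelled replicates 1 to 4. Their summed level was 114 to 224 RPKM in Control and 189 to 640 RPKM under the TKO label, and 0 of them were at 0 in all embryos. Of the 9, 8 had an unadjusted limma p under 0.05 with higher values (13.9% over all tested genes), though 0 passed after adjustment. The median log2 difference was 1.44 against 0.09 over all tested genes. The leading members were Nid1, at 6.26 ± 1.94 and 23.6 ± 12.3 RPKM (limma adjusted p = 0.132), and Sparc, at 89.6 ± 25.4 and 209 ± 74.2 RPKM (SD, n = 4, limma adjusted p = 0.145). TKO-labelled replicate 1 lay within the Control range for this list and at 1.06 RPKM for Hoxd13. With the list as a covariate the log2 difference of Hoxd13 was 0.88 (SE 0.20, limma adjusted p = 0.210), the same size with a wider error. Hoxd13 entered this fit too only through its TKO-labelled values, so its SE and p carry no weight as support. In bulk samples such as these, more cells of a type and more RNA per cell cannot be told apart. The part of parietal endoderm in the Hoxd13 values was not tested.

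Hoxa10, Hoxa11 and Hoxd10 reached the highest Hox levels in the data, and the SD of each within Control was larger than the difference between the group means. Hoxa10 was at 2.25, 0.085, 12.5 and 5.0 RPKM in Control replicates 1 to 4 and at 0.738, 0.067, 3.78 and 2.17 RPKM in TKO-labelled replicates 1 to 4. Hoxa11 was at 1.65, 0, 4.14 and 2.60 RPKM and at 0, 0.031, 1.59 and 0.796 RPKM in the same order. Hoxd10, known from limb and lumbar spinal cord, was at 1.59, 0.112, 4.74 and 3.61 RPKM and at 0.169, 0.039, 1.52 and 2.28 RPKM.

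All 3 genes were high in Control replicates 1, 3 and 4 and in TKO-labelled replicates 3 and 4, and low in Control replicate 2 and TKO-labelled replicates 1 and 2. The groups overlapped for each. The log2 differences, TKO-labelled minus Control, were -0.84 for Hoxa10 (SE 0.69, limma adjusted p = 0.548), -0.84 for Hoxa11 (SE 0.47, limma adjusted p = 0.376) and -0.73 for Hoxd10 (SE 0.51, limma adjusted p = 0.482). These sizes depended on single embryos. On leaving out Control replicate 2 the differences grew to -1.48, -1.31 and -1.20, and the limma adjusted p was between 0.235 and 0.293 for all 3. On leaving out Control replicate 3 they shrank to -0.27 for Hoxa10, -0.52 for Hoxa11 and -0.41 for Hoxd10. Without TKO-labelled replicate 2 they were -0.47, -0.66 and -0.47 in the same order.

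The antisense transcript Hoxa11as, which overlaps Hoxa11 and is no member of the family, was at 2.50, 0.036, 8.14 and 3.97 RPKM in Control and at 0.219, 0.038, 2.68 and 2.22 RPKM in TKO-labelled embryos. The embryos thus fell in a similar order to that of Hoxa11. Because the use of strand is not given, reads of Hoxa11 and of Hoxa11as cannot be told apart.

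Several markers of the maternal decidua and uterus varied between embryos in a similar way. Prl8a2, a decidual prolactin, was at 174, 1.32, 336 and 209.8 RPKM in Control and at 21.3, 11.8, 354 and 45.2 RPKM in TKO-labelled embryos. Hand2, a transcription factor of the uterine stroma, was at 3.01, 0.060, 8.67 and 5.32 RPKM and at 0.721, 0, 3.87 and 1.68 RPKM. The intermediate filament gene Des, expressed in decidual stroma and muscle, was at 8.50, 0.342, 25.3 and 12.3 RPKM and at 2.25, 0.524, 9.24 and 6.02 RPKM. Control replicate 2 and TKO-labelled replicate 2 were lowest and Control replicate 3 was highest or second highest for each of these markers. Not all members of the list did so: Alpl, a phosphatase gene, was highest in TKO-labelled replicate 1, at 4.89 RPKM, and Igfbp4, which encodes a growth factor binding protein, in TKO-labelled replicate 2, at 18.1 RPKM.

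Over all 13 genes of the decidua list the summed level ran from 21.9 to 544 RPKM in Control and from 45.9 to 456 RPKM in TKO-labelled embryos. Of the 13 genes 0 were at 0 in all embryos. Pgr, the progesterone receptor, was low throughout, at 0.417 to 2.19 RPKM in Control and 0.234 to 0.897 RPKM in TKO-labelled embryos. The list had 9 tested genes, of which 0 passed the limma threshold in either direction. At an unadjusted limma p under 0.05 stood 0 of them, against 13.9% with higher and 3.6% with lower values over all tested genes. The median log2 difference of the list was -0.57 against 0.09 over all tested genes. Its leading members were Hand2 (-0.88, limma adjusted p = 0.498) and the Wnt ligand gene Wnt4 (-0.59, limma adjusted p = 0.520).

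Across the 8 embryos the log2 level of Hoxa10 followed the mean log2 level of the decidua list with Pearson's r = 0.97 (exact permutation p = 4.96e-05, adjusted over 5 relations 2.48e-04) and Spearman's rho = 0.98 (exact permutation p = 3.97e-04, adjusted 0.00198). For Hoxa11 r was 0.95 (exact permutation p = 3.47e-04, adjusted 8.68e-04) and rho 0.93 (p = 0.00169, adjusted 0.00422). For Hoxd10 r was 0.91 (exact permutation p = 0.00255, adjusted 0.00426) and rho 0.88 (p = 0.00724, adjusted 0.0121). The list was chosen with earlier results of these data known, so these p-values are a description and no independent test. Few genes followed the list as closely. Of the tested genes outside the list, 0.182%, 0.383% and 0.958% had an r at least as high as these 3. Without the embryos farthest from the median of the list, Control replicates 2 and 3, r was 0.98, 0.96 and 0.87 over 6 embryos, and after centring each group it was 0.98, 0.98 and 0.91.

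The relation of Hoxd13 with the list had no exact permutation p under 0.05. Its r was -0.17 (exact permutation p = 0.674, adjusted 0.674) and rho -0.19 (p = 0.665, adjusted 0.665), and r was -0.67 without the same 2 embryos. After centring each group its r was 0.32, and within Control it was highest in replicate 3 and lowest in replicate 2, the embryos in which the list was highest and lowest. With the decidua list as a covariate the log2 difference was 0.89 for Hoxd13 (SE 0.14, limma adjusted p = 0.0885). Hoxd13 entered that fit only through its TKO-labelled values, so its SE and p carry no weight as support. The difference of Hoxa10 was -0.26 (SE 0.19, limma adjusted p = 0.516). That of Hoxd10 was -0.33 (SE 0.24, limma adjusted p = 0.509) and that of Hoxa11 -0.45 (SE 0.15, limma adjusted p = 0.203). With the decidua covariate, added after seeing the data, the difference of Hoxd13 had nearly the same size and those of the other 3 genes were smaller. With the parietal endoderm covariate the differences of these 3 genes were larger. They were -1.54 for Hoxa10 (SE 1.0), -1.63 for Hoxa11 (SE 0.65) and -1.46 for Hoxd10 (SE 0.74), with limma adjusted p-values of 0.514, 0.303 and 0.407. The part of decidual tissue in these Hox values was not tested.

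**Figure D3:**
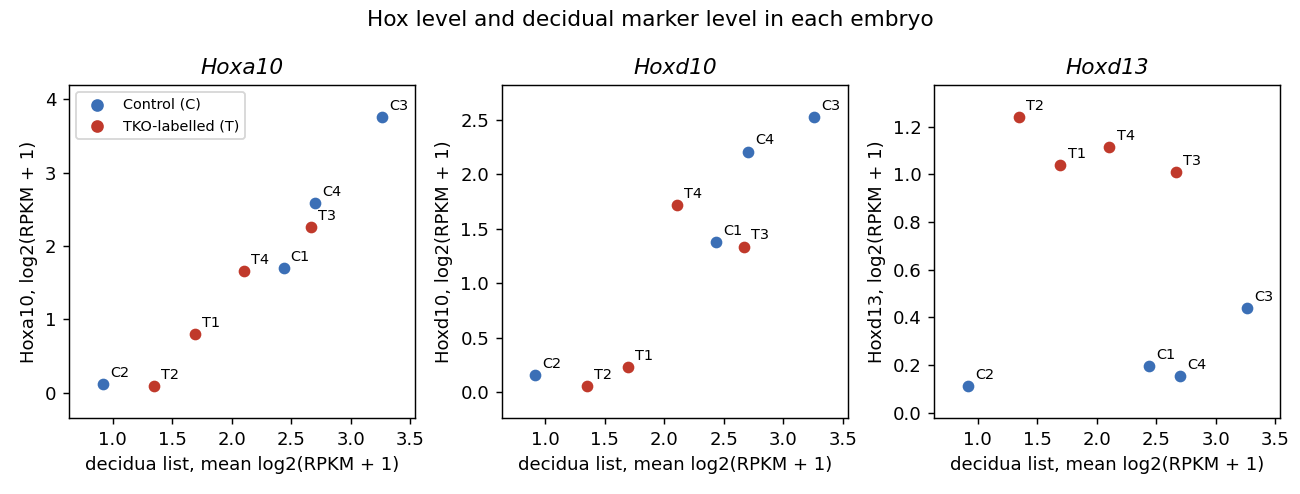
Level of Hoxa10, Hoxd10 and Hoxd13 (vertical axes, log2(RPKM + 1)) against the mean level of 13 decidual and uterine genes (horizontal axes, mean log2(RPKM + 1)) in each Control (blue, C) and TKO-labelled (red, T) embryo, numbered by replicate. Hoxa10 and Hoxd10 rise with the decidua list across both groups, with r of 0.97 and 0.91, whereas Hoxd13 is higher in every TKO-labelled than in every Control embryo.

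At the 3′ end Hoxb1 and Hoxd1, of paralog group 1, and Hoxb2 were highest in the same embryo, TKO-labelled replicate 2. Hoxb1, a hindbrain gene that is also among the first Hox genes in the streak, was at 0.117, 0.032, 0.116 and 0.067 RPKM in Control. In TKO-labelled replicates 1 to 4 it was at 0, 0.678, 0.050 and 0.041 RPKM, or an estimated 0, 20, 2 and 1 reads. Hoxd1 was at 0.130, 0, 0.129 and 0 RPKM in Control and at 0.162, 0.454, 0.141 and 0.091 RPKM in TKO-labelled embryos, with 12 reads in replicate 2. Hoxb2 reached 0.259 RPKM there, with 6 reads, against 0 to 0.186 RPKM in the other 7 embryos. Hoxb1 and Hoxb2 were singled out after their values were seen. Other genes of low paralog number did not follow. Hoxa2, Hoxa4, Hoxc4, Hoxd3 and Hoxd4 were listed at 0 in TKO-labelled replicate 2. Hoxa3 was highest in Control replicate 2 (0.184 RPKM), Hoxb3 in Control replicate 3 (0.108 RPKM) and Hoxb4 in TKO-labelled replicate 3 (0.163 RPKM).

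Several genes of the primitive streak and of the first mesoderm were also highest in that embryo, but not all of the list: Lhx1 was highest in TKO-labelled replicate 1 (7.88 RPKM), Wnt3 in Control replicate 2 (4.31 RPKM) and Wnt3a, at 0.062 RPKM or less throughout, in TKO-labelled replicate 4. Brachyury, T, was at 34.0 RPKM there and at 2.24 to 7.06 RPKM in Control, and Mixl1, a homeobox gene of the streak, was at 48.3 RPKM against 5.77 to 9.37 RPKM. Mesp1, a marker of nascent mesoderm, was at 13.9 RPKM there, at 0.389 RPKM in TKO-labelled replicate 3, listed at 0 in replicates 1 and 4, and at 0 to 0.892 RPKM in Control. The other TKO-labelled embryos lay at 2.86 to 9.29 RPKM for T and 10.2 to 13.4 RPKM for Mixl1. Between the groups the exact permutation p was 0.943 for Hoxb1, 0.143 for Hoxd1 and 0.514 for Hoxb2. Without TKO-labelled replicate 2 the log2 difference of Hoxb1 was -0.07 in place of 0.10 and that of Hoxd1 0.09 in place of 0.18. Over 12 streak and mesoderm genes the list mean was 3.18 in that embryo and 1.91 to 2.23 in the other 7, on the log2(RPKM + 1) scale. The part of streak progress in these Hox values was not tested.

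**Figure D4:**
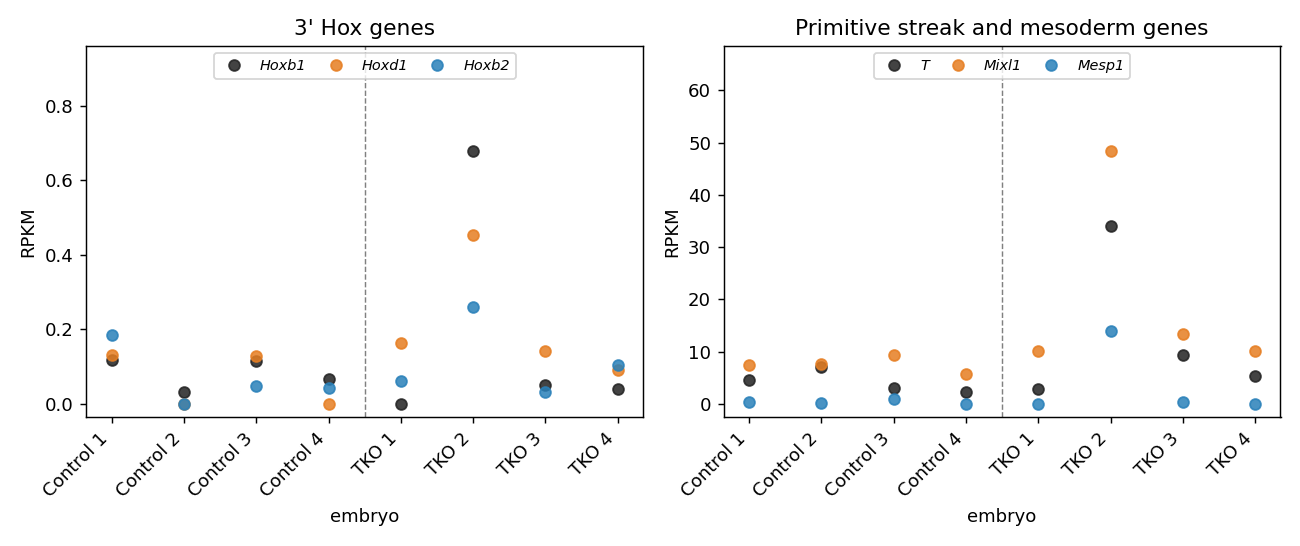
RPKM of the 3′ genes Hoxb1, Hoxd1 and Hoxb2 (left) and of T, Mixl1 and Mesp1 (right) in each embryo; points are single embryos and the dashed line parts Control from TKO-labelled embryos. TKO-labelled replicate 2 has the highest Hoxb1 (0.678 RPKM), Hoxd1, Hoxb2, T (34.0 RPKM), Mixl1 and Mesp1.

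Of paralog groups 4 to 9, 3 genes were at or above 0.1 RPKM in at least 4 embryos. Hoxb7 was at 0.238, 0, 0.694 and 0.329 RPKM in Control and at 0.318, 0.111, 0.371 and 0.134 RPKM in TKO-labelled embryos (exact permutation p = 0.714). Hoxd9 was at 0.058, 0.032, 0.496 and 0.166 RPKM and at 0, 0.067, 0.249 and 0.122 RPKM (exact permutation p = 0.629). Hoxb4, known from blood stem cells, was at 0.024, 0, 0.156 and 0.108 RPKM and at 0.079, 0.137, 0.163 and 0.066 RPKM (exact permutation p = 0.400). For each of the 3 the groups overlapped, and Hoxb7 and Hoxd9 were highest in Control replicate 3. The remaining genes of the heat map rest on 0 to 8 estimated reads per embryo. The least detected were Hoxb8 and Hoxc6, each above 0 in 1 embryo with 1 read.

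Of the tested genes that read, regulate or flank Hox clusters, 0 passed the limma threshold. Over all 10451 tested genes 13.9% had an unadjusted limma p under 0.05 with higher and 3.6% with lower TKO-labelled values (839 and 673 genes after median-ratio scaling), and the counts of the lists below are to be read against these shares. Among 7 tested partners of Hox proteins of the Pbx, Meis and Pknox families, 2 had an unadjusted limma p under 0.05, both with higher TKO-labelled values (13.9% over all tested genes), and the median log2 difference was 0.14 against 0.09 over all tested genes. They were Meis3, at 1.05 ± 0.61 and 2.22 ± 0.41 RPKM (limma adjusted p = 0.173), and Pbx3, at 9.93 ± 1.58 and 13.5 ± 2.54 RPKM (SD, n = 4, limma adjusted p = 0.239).

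Of 37 tested Polycomb and Trithorax genes, which keep Hox clusters silent or active, 7 had an unadjusted limma p under 0.05 with higher and 1 with lower values, near the shares over all tested genes of 13.9% and 3.6%, and the median log2 difference was 0.15. The Polycomb gene Pcgf1 averaged 8.39 ± 0.38 and 11.7 ± 1.19 RPKM (log2 difference 0.43, limma adjusted p = 0.156). Rbbp7, a histone-binding protein shared with other complexes, averaged 170.2 ± 27.7 and 257 ± 52.3 RPKM (0.58, limma adjusted p = 0.173). Ezh2, the histone methyltransferase of Polycomb, was at 61.1 to 71.9 RPKM in Control and 54.6 to 68.6 RPKM in TKO-labelled embryos.

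Among 13 tested activators and retinoic acid genes, 1 had an unadjusted limma p under 0.05 (13.9% with higher values over all tested genes), Crabp2, which carries retinoic acid in cells (log2 difference 1.07, limma adjusted p = 0.0576). The list median was 0.18. Cyp26a1, the enzyme that breaks down retinoic acid, was next and averaged 53.3 ± 11.2 and 67.8 ± 15.4 RPKM (limma adjusted p = 0.340). Of the Cdx genes, which switch on central Hox genes, Cdx2 was at 1.05 to 1.97 RPKM in Control and 1.67 to 2.69 RPKM in TKO-labelled embryos, and Cdx1 did not exceed 0.241 RPKM. Cdx4 was at 0.038, 0, 0.10 and 0 RPKM in Control and at 0.253, 0.132, 0.296 and 0.107 RPKM in TKO-labelled embryos, without overlap (exact permutation p = 0.0286), at a level near the lowest that the depth can show. Higher values without overlap were found in 5.25% of the 17635 genes compared in this way. No gene had an adjusted exact permutation p below 0.394.

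Of 13 tested genes that flank the clusters, 3 had an unadjusted limma p under 0.05, all with higher values (13.9% over all tested genes), and the median log2 difference was 0.10. Mtx2, a mitochondrial membrane gene beside cluster d, was at 42.8 to 51.1 RPKM in Control and 53.6 to 85.5 RPKM under the TKO label (a log2 difference of 0.43 with a limma adjusted p of 0.215). Cbx5, beside cluster c, which encodes heterochromatin protein 1 alpha, averaged 34.4 ± 1.90 and 41.5 ± 3.00 RPKM (0.26, limma adjusted p = 0.225). Mir10b, the microRNA precursor locus in cluster d, was listed at 0 in all 8 embryos.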

How the data were processed

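RNA of 8 single embryos was sequenced from SMARTer cDNA and Nextera XT libraries, per the labels. The deposited values are the authors' RPKM, 1 per symbol in each embryo. Per the submitters' processing notes HTSeq and mm9 were used. The sources used here do not give aligner, annotation or strand setting.

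Groups were compared with limma 3.58.1 (R 4.3.3) on log2(RPKM + 1) with the eBayes trend, on genes with at least 1 RPKM in at least 4 embryos, without block or covariate. Benjamini-Hochberg adjustment ran over every gene in the fit. Single genes above 0 in at least 4 embryos were also compared by exact permutation (70 assignments). Read totals were placed where most low values of genes with 1 GENCODE M21 transcript came out at 1 to 3 reads, within 2%, which held for 31.0% to 38.3% of them. The reads behind a Hox value use the shortest length that turned its values of up to 20 reads whole, within 1.5% plus rounding and at most 0.3 read. For 23 of the 37 genes that length was within 3% of a GENCODE transcript. Larger counts are rounded, and none were used in a test. Because litters are unknown, the p-values measure only the spread among these 8 embryos.

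Named were Hox genes with a group mean of at least 1 RPKM or at least 0.1 RPKM in at least 4 embryos. So were defining markers and, of each other list described here, the genes that passed or else the leading 2 by p. Any other gene named was picked after its values were seen. The values of 1 Hox gene are not reported here. Members and lists were chosen with earlier results of these data known. Alternatives were another pseudocount, filter, scaling or variance model, the replicate block, leaving out each embryo and, added after seeing the data, the decidua and parietal endoderm covariates and the filter of 0.1 RPKM combined with other choices. The fits were tested on simulated data.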

Additional observations from a re-analysis of the deposited data

Results flagged for a closer look

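Hoxb1 in TKO-labelled replicate 2, at 0.678 RPKM, lay far from the other 3 embryos of its group, at 0 to 0.050 RPKM. Its gap to the nearest of them was 0.93 of the range of the group, above Dixon's 95% critical value for 4 values. Hoxb1 was singled out after its values were seen, because of this embryo, so passing this value is a description and no independent test. It was the 1 of 24 groups of 4 values that passed, and chance flags about 1 in 20 groups.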

How the results depend on the processing

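Hoxd13 had higher TKO-labelled values in every alternative in which it was tested. Among genes at 1 RPKM or more its limma adjusted p ranged from 0.0569 to 0.236 over the alternatives, with a log2 difference of 0.84 to 2.28, the latter with a pseudocount of 0.1. These p-values carry no weight as support, because Hoxd13 entered those fits only through its TKO-labelled values. With the filter of 0.1 RPKM (log2 difference 0.88) it passed, as 1 Hox gene past the threshold in place of 0. Added to that filter, the replicate block (0.88, limma adjusted p = 0.0881), the decidua covariate (0.89) and the parietal endoderm covariate (0.88) each ended the call, and leaving out 1 embryo gave 0.83 to 0.95. With the main filter Hoxd13 gave no value after median-ratio scaling or without any of the TKO-labelled embryos, because fewer than 4 values then reached 1 RPKM. Over all genes the count past the threshold was 1, and 0 with no filter on low values (2411 genes at an unadjusted p under 0.05), 4 with the filter of 0.1 RPKM, 0 with the replicate block, 0 with the decidua and 3 with the parietal endoderm covariate, and 0 to 36 without 1 embryo, the 36 without TKO-labelled replicate 1.

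The replicate numbers were not taken to pair the embryos, since the correlation of same-numbered embryos was -0.00, 0.40, 0.26 and -0.02. Under the block Hoxa10, Hoxa11 and Hoxd10 had an unadjusted limma p of 0.00453 to 0.00623 and an adjusted p of 0.157. Hoxd1 reached an unadjusted exact permutation p of 0.0286 without TKO-labelled replicate 4, its lowest TKO-labelled value. In its other alternatives the exact permutation p was 0.143 to 0.343. The number of Hox genes at or above 0.1 RPKM, TKO-labelled minus Control, was -0.25 and ranged from -2.42 to 1.58 over its alternatives. Depth limits all statements on genes with 1 to 3 reads.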
